A study of Mus musculus with 28 samples.

Results

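The IFIT family (interferon-induced proteins with tetratricopeptide repeats) was followed through macrophages exposed to von Willebrand factor (VWF) or bacterial lipopolysaccharide (LPS). Its members were taken by gene name: Ifit1, Ifit1bl1, Ifit1bl2, Ifit2, Ifit3 and Ifit3b, 6 of the 54532 genes in the count table. The rule used names and no measured value, and all 6 had counts. 5 of the 6 reached 10 TPM (counts per exon length, scaled to the same total in every culture) in at least 1 culture, the expression filter of every test. Ifit1bl2 stayed below it in all 28 cultures and is given as counts and in fits without the filter.

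IFIT proteins are built from helical repeats that form a pocket or groove for RNA, and their genes are among the most responsive targets of type I interferon. Interferon beta signals through its receptor, JAK1 and TYK2 to a complex with STAT2 and IRF9, which binds interferon-stimulated response elements upstream of these genes. Ifit1 is known for binding capped RNA that lacks ribose methylation next to the cap, which keeps such RNA from being translated, and Ifit2 and Ifit3 act with it or on RNA and cell survival of their own accord. In macrophages, LPS sets off this pathway through Toll-like receptor 4 and secreted interferon beta.

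The cells were murine bone marrow-derived macrophages (BMDMs), grown from C57/B6JB mice and kept with M-CSF. After washing they received fresh medium with calcium chloride and either PBS (Control), plasma-derived VWF (pd-VWF) at 10 µg/ml or LPS at 100 ng/ml, for 3.5 h or 16 h, and each culture was profiled by bulk RNA sequencing. There were 5 Control, 5 VWF and 4 LPS cultures at each time, each labelled as a biological replicate. Whether the cultures of a group came from different mice is not stated, so p values measure the spread between these cultures.

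Total counts per culture lay between 41131209 and 77699206, with a median of 52986574. All 6 macrophage markers examined were expressed, 5 of them above 10 TPM in every culture, and they summed to between 1025 and 7389 TPM. Of 24 markers of T, B, NK and dendritic cells, neutrophils, erythroid and stromal cells, 14 stayed under 1 TPM everywhere, and the 24 summed to between 6.56 and 112 TPM. The 4 stromal markers reached the highest sum of these cell types, 98.3 TPM in a VWF culture at 3.5 h, and Col1a1 reached 81.1 TPM. The 4 dendritic cell markers summed to between 0.616 and 0.905 TPM in Control cultures at 3.5 h, between 8.27 and 10.2 TPM with VWF and between 10.4 and 11.9 TPM with LPS at that time. At 16 h the sums were between 0.320 and 0.843 TPM, 0.545 and 1.67 TPM and 6.73 and 11.6 TPM, with Flt3 at no more than 0.067 TPM anywhere and Xcr1 reaching 11.5 TPM. The part of these markers in the IFIT values was not tested.

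The 6 genes lie side by side on mouse chromosome 19, within 99.3 kb of GRCm38 (GENCODE M21). Ifit2 (chr19:34550694-34576419), Ifit3 (chr19:34583531-34588731), Ifit3b (chr19:34607970-34613401) and Ifit1 (chr19:34640871-34650009) are on the plus strand. Ifit1bl1 (chr19:34592891-34601956) and Ifit1bl2 (chr19:34617049-34640743) are on the minus strand. No exon of a member overlaps an exon of another gene. Ifit1bl2 and Ifit1 point away from each other, with 127 bases between their annotated first bases.

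**Figure D1:**
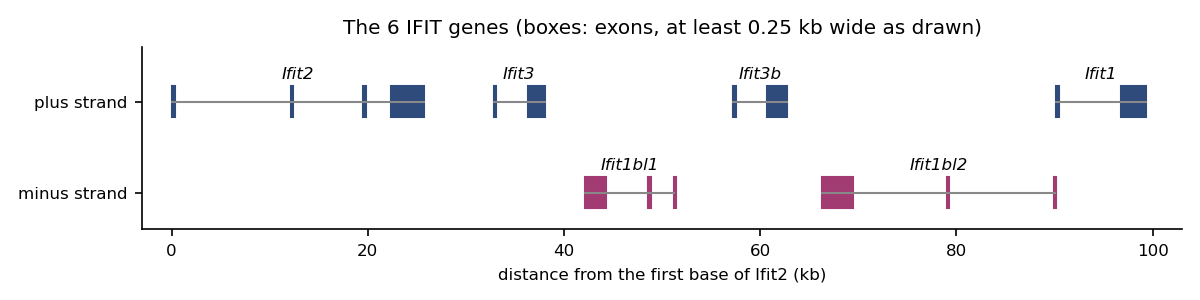
The 6 IFIT genes in annotation order, with distance from the first base of Ifit2 in kb on the x axis and the strand on the y axis. Boxes are exons, and the genes fill a stretch of 99.3 kb, 4 on the plus strand and 2 on the minus strand.

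Sequence upstream of 3 members is shown because it carries the letters of the interferon-stimulated response element core: GAAA, any 2 bases, then GAAA again, on either strand. Capitals mark each match, which appears here as its reverse complement. The sequences are from RefSeq (GRCm38.p6) and run 5′ to 3′ along the strand of the gene: chr19:34640744-34640870 (plus) between Ifit1bl2 and Ifit1, chr19:34583359-34583528 (plus) before Ifit3 and chr19:34601969-34602088 (minus) before Ifit1bl1.
Ifit1: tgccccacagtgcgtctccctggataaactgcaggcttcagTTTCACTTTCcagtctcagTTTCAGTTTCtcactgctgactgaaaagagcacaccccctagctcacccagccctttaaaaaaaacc
Ifit3: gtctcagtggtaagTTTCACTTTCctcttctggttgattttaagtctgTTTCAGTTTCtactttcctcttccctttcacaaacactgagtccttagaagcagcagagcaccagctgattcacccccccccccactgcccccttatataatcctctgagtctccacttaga
Ifit1bl1: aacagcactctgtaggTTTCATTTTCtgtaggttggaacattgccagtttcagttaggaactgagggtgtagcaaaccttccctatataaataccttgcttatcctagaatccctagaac

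In windows of 300 bases (250 before to 50 after each RefSeq start), Ifit1, Ifit3 and Ifit3b each held 2 matches. The window of Ifit1bl1 held 1 match at each of its 2 listed starts. The 2 matches before Ifit1 also fall in the window of the distal Ifit1bl2 start, while the other Ifit1bl2 start held 0 and both Ifit2 windows held 0. Over all 32851 windows of this length, 3.44% held at least 1 match and 0.225% held at least 2. A second search, for TTCNNNGAA (the STAT core), found 1 match in 1 Ifit2 window and 0 in the windows of the other members, against 8.3% of all windows. These are matches of letters, not measured binding sites.

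Ifit3 and Ifit3b are near copies. Their coding sequences are both 1212 bases long and differ at 11 bases (99.1% identical), and 166 of 168 aligned upstream bases are the same. The other pairs are further apart: Ifit1bl1 and Ifit1bl2 are 88.3% identical, Ifit1 is 76.1% identical to Ifit1bl1 and 75.9% to Ifit1bl2, and the remaining pairs lie between 56.4% and 62.3%. The stretch below, coding bases 169 to 288 of both genes (chr19:34587224-34587343 and chr19:34611594-34611713, GRCm38, plus strand), shows how few bases separate the copies, with the 4 differing bases in capitals.
Ifit3: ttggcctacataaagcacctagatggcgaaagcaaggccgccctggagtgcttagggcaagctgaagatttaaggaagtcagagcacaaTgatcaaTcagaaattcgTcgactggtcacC
Ifit3b: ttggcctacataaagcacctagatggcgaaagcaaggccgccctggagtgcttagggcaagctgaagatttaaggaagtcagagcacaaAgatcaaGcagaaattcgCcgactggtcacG

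Of the 100-base windows in the transcripts of Ifit3, 31.7% occur unchanged in another gene, always Ifit3b, and of those of Ifit3b 27.4% occur in Ifit3. For Ifit1, Ifit1bl1 and Ifit1bl2 the share was 3.29%, 0.51% and 2.91%, and for Ifit2 it was 0. How reads that map to both places were counted is not given in the sources used here, so the split between Ifit3 and Ifit3b is uncertain.

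All 5 testable IFIT genes rose with either stimulus at 3.5 h, from a low resting level. The 6 genes together made up 47.4 ± 19.7 TPM (SD, n = 5) in Control cultures at 3.5 h, 3717 ± 1015 TPM (n = 5) with VWF and 16077 ± 428 TPM (n = 4) with LPS. At 16 h the sums were 35.0 ± 14.3, 842 ± 256 and 10897 ± 1230 TPM, so that the VWF cultures had a smaller sum than at 3.5 h and the LPS cultures still held 1.09% of all TPM in IFIT genes. In bulk RNA, fewer responding cells and less RNA per cell cannot be told apart.

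Ifit1, the cap-binding member, was at 12.4, 9.86, 6.44, 12.0 and 4.67 CPM (counts per sequencing depth, scaled by TMM factors) in Control cultures at 3.5 h. It was at 952, 1678, 1958, 2778 and 1689 CPM in the VWF cultures and at 14428, 9836, 13896 and 12808 CPM in the LPS cultures. The 3 groups did not overlap, and every LPS culture stood above every VWF culture. Against Control, Ifit1 rose by 7.66 ± 0.41 on the log2 scale (SE; 203-fold) with VWF (edgeR adjusted p = 5.02e-08) and by 10.47 ± 0.37 (1419-fold) with LPS (edgeR adjusted p = 1.40e-09).

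At 16 h, Ifit1 was at 3.89, 8.30, 10.8, 4.48 and 17.2 CPM in Control cultures, 151, 165, 150.3, 176 and 79.9 CPM with VWF and 3322, 3571, 2942 and 7073 CPM with LPS. The groups again did not overlap, but 1 VWF culture (replicate 5) was low and 1 LPS culture (replicate 4) was high within its group. The log2 fold change was 4.02 ± 0.43 with VWF (edgeR adjusted p = 5.75e-05) and 8.93 ± 0.62 with LPS (edgeR adjusted p = 2.16e-06). Without LPS replicate 4 the LPS value was 8.55, and without VWF replicate 5 the VWF value was 4.18.

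Ifit1bl1, a mouse relative of Ifit1 on the opposite strand, was close to 0 without a stimulus: 6 to 42 counts per Control culture at 3.5 h and 4 to 21 at 16 h. At 3.5 h it reached 11.3, 14.6, 17.7, 30.6 and 27.8 CPM with VWF and 146, 234, 272 and 279.9 CPM with LPS. Later, at 16 h, its values were 3.80, 5.53, 5.16, 1.92 and 2.32 CPM with VWF and 1730.1, 1295, 1269.6 and 735 CPM with LPS. It was the one member with a higher level at 16 h than at 3.5 h in every LPS culture among the 5 that were tested.

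The log2 fold change of Ifit1bl1 at 3.5 h was 5.93 ± 0.45 with VWF (edgeR adjusted p = 7.86e-07) and 9.43 ± 0.38 with LPS (edgeR adjusted p = 3.40e-09). With LPS at 16 h it was 12.87 ± 0.58 (edgeR adjusted p = 1.51e-07), a fold of 7507 that rests on the few counts in the Control cultures. In VWF against Control at 16 h it did not reach the filter, and the fit without the filter gave 4.50 ± 0.48 (edgeR adjusted p = 2.19e-05).

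Ifit1bl2 had 7, 7, 0, 2 and 2 counts in Control cultures at 3.5 h, 48, 27, 31, 62 and 79 with VWF and 116, 90, 94 and 114 with LPS. Its counts at 16 h were 21, 13, 18, 13 and 0 counts in Control, 92, 92, 88, 44 and 39 with VWF and 498, 491, 367 and 460 with LPS. The groups at each time did not overlap in CPM, although Ifit1bl2 shares its upstream stretch with Ifit1 and stood far below it, at no more than 7.28 TPM. Without the filter, its log2 fold change at 3.5 h was 3.83 ± 0.56 with VWF (edgeR adjusted p = 2.74e-05) and 5.42 ± 0.48 with LPS (edgeR adjusted p = 4.22e-09), and at 16 h 2.54 ± 0.57 (edgeR adjusted p = 0.00868) and 5.83 ± 0.53 (edgeR adjusted p = 3.90e-06).

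Ifit2, which binds AU-rich RNA and is linked to apoptosis, was at 13.3, 10.7, 7.28, 16.9 and 7.68 CPM in Control cultures at 3.5 h, at 572, 771, 813, 1247 and 1174 CPM with VWF and at 3652, 5411.5, 5199 and 5062 CPM with LPS. At 16 h the values were 9.81, 14.4, 21.2, 11.5 and 9.92 CPM in Control, 153, 192, 210.4, 125 and 111 CPM with VWF and 5468, 5088, 5365 and 3567 CPM with LPS. No group at either time overlapped another, and the LPS cultures of the 2 times covered nearly the same range. The log2 fold change against Control at 3.5 h was 6.38 ± 0.34 with VWF (edgeR adjusted p = 4.63e-08) and 8.78 ± 0.32 with LPS (edgeR adjusted p = 1.51e-09). The values at 16 h were 3.56 ± 0.28 (edgeR adjusted p = 7.16e-06) and 8.55 ± 0.33 (edgeR adjusted p = 6.54e-08).

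Ifit3, known as a partner of other IFIT proteins, was at 17.2, 13.9, 8.83, 16.7 and 6.34 CPM in Control cultures at 3.5 h, 406, 619.7, 577, 962 and 655 CPM with VWF and 2083, 3029, 2465 and 2902 CPM with LPS. At 16 h it was at 4.68, 8.93, 13.5, 6.97 and 6.40 CPM in Control, 357, 393, 380.2, 264 and 177 CPM with VWF and 3119, 3005, 2712 and 2208 CPM with LPS. The VWF cultures of 16 h lay below those of 3.5 h but nearer to them than was the case for Ifit1 and Ifit2. The log2 fold change at 3.5 h was 5.70 ± 0.35 with VWF (edgeR adjusted p = 1.42e-07) and 7.72 ± 0.34 with LPS (edgeR adjusted p = 6.59e-09). At 16 h it was 5.27 ± 0.36 (edgeR adjusted p = 2.84e-06) and 8.45 ± 0.37 (edgeR adjusted p = 1.18e-07).

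Ifit3b gave lower values in the same order. In Control cultures it was at 2.13, 2.16, 1.18, 2.78 and 0.647 CPM at 3.5 h and 0.458, 1.25, 1.98, 0.423 and 0.251 CPM at 16 h. With VWF it was at 66.3, 101, 98.6, 159 and 110.4 CPM at 3.5 h and 58.1, 60.6, 55.9, 42.5 and 27.1 CPM at 16 h, and with LPS at 386, 555, 483 and 566 CPM and at 616, 573, 502 and 366 CPM. Groups at 1 time did not overlap. The log2 fold changes at 3.5 h were 5.92 ± 0.39 with VWF (edgeR adjusted p = 2.20e-07) and 8.13 ± 0.37 with LPS (edgeR adjusted p = 8.62e-09), and at 16 h 5.79 ± 0.56 (edgeR adjusted p = 2.87e-05) and 9.23 ± 0.67 (edgeR adjusted p = 2.73e-06).

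**Figure D2:**
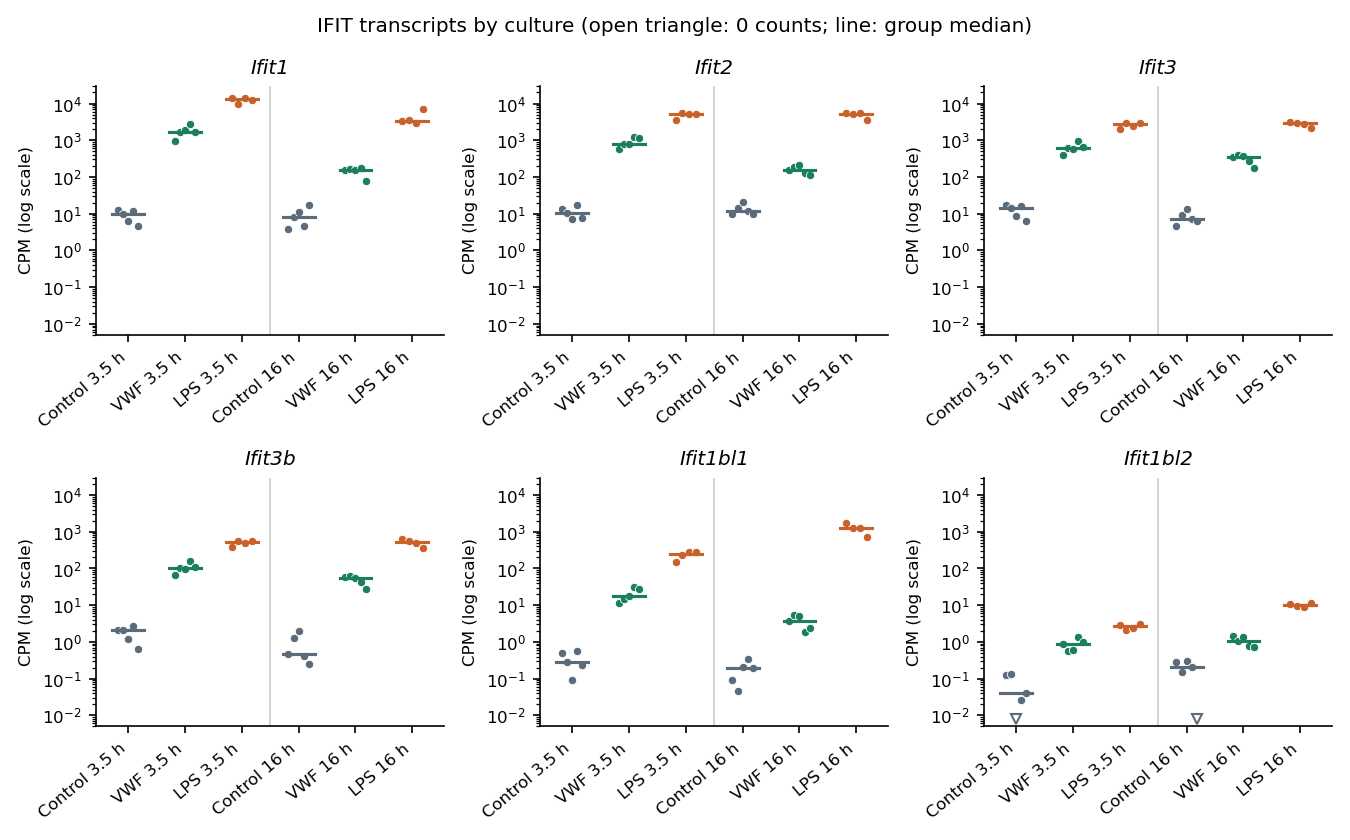
CPM of each IFIT gene on a log axis in the 28 cultures, with groups on the x axis, 1 point per culture, a line at the group median and an open triangle for a culture at 0 counts. Within each time the Control, VWF and LPS cultures form 3 separate levels for every member, and Ifit1bl1 is the member whose LPS cultures are clearly higher at 16 h than at 3.5 h on the scale of the plot, with Ifit1bl2 following at a far lower level.

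The calls were read against all genes tested. In VWF against Control at 3.5 h, 5 of 5 tested members were higher, where 9.18% of the 8200 genes tested were, and their median log2 fold change was 5.93 against 0.00 over all genes. In LPS against Control at 3.5 h it was 5 of 5 (12.8% of all genes higher), with a median of 8.78 against -0.02. In VWF against Control at 16 h it was 4 of 4 (4.55%), with a median of 4.64 against -0.03, and in LPS against Control at 16 h 5 of 5 (15.3%), with a median of 8.93 against -0.03. The VWF and LPS comparisons of 1 time share their Control cultures. Ifit3b (at most 5.01 TPM) and Ifit1bl1 (at most 0.896 TPM) stayed under the filter in every Control culture. They could enter these tests only through the stimulated cultures, so their part in the counts was partly fixed by the filter. Ifit1, Ifit2 and Ifit3 reached 10 TPM in Control cultures of both times.

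**Figure D3:**
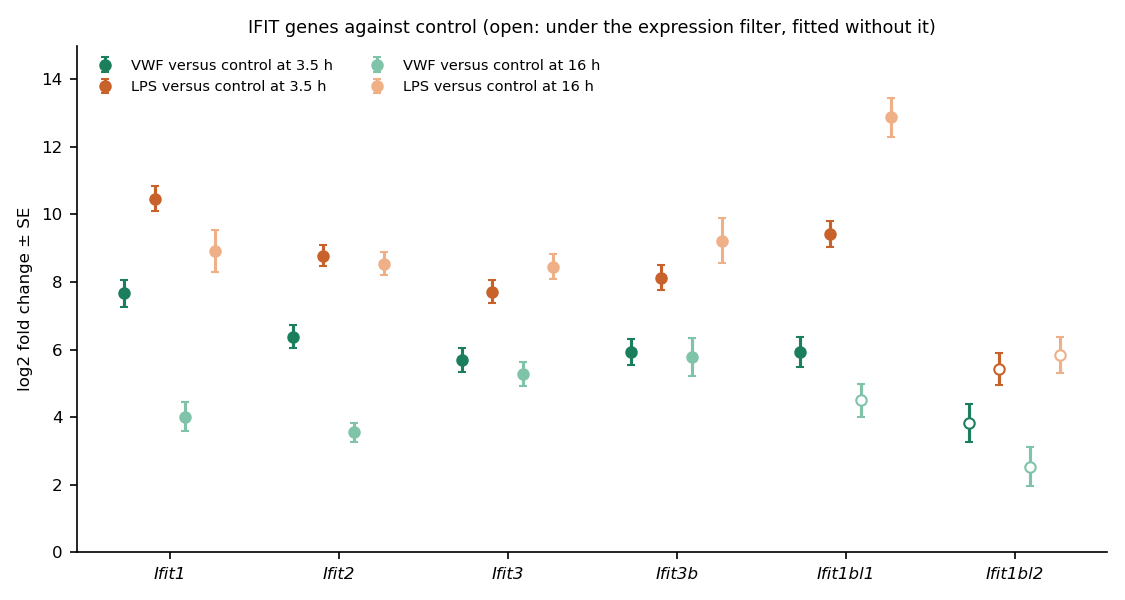
Log2 fold change against Control of the same time for each IFIT gene, with bars of 1 SE (y axis, log2 units), coloured by stimulus and time. LPS values lie above VWF values at both times, and open points were fitted without the expression filter. Ifit1bl1 with LPS at 16 h has the highest point, 12.87.

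Compared directly, VWF gave lower IFIT levels than LPS at both times. At 3.5 h 5 of 5 tested members were lower with VWF (6.71% of all genes tested were), with a log2 fold change of -2.79 ± 0.26 for Ifit1, -2.38 ± 0.23 for Ifit2, -2.20 ± 0.22 for Ifit3b and -3.49 ± 0.31 for Ifit1bl1. Ifit3 was 4.01-fold lower, with an SE of 0.22 on the log2 scale. The largest of their edgeR adjusted p values was that of Ifit3, 2.89e-05. At 16 h it was again 5 of 5 (14.5% of all genes), and the distances were larger: the log2 fold change of VWF against LPS was -4.87 ± 0.34 for Ifit1, -4.94 ± 0.24 for Ifit2, -3.13 ± 0.24 for Ifit3, -3.40 ± 0.26 for Ifit3b and -8.38 ± 0.45 for Ifit1bl1. For Ifit3, that is an 8.77-fold difference at 16 h, and for Ifit2 a 30.7-fold one. Ifit1bl1 was at 6.95 TPM or less with VWF at 16 h and passed the filter there only through the LPS cultures. With library size scaling, 340 of the 7500 genes tested at 3.5 h were lower in place of 503 and 700 of 7574 at 16 h in place of 1095, and 5 of 5 members were called at both times. The fit without the filter gave -1.63 ± 0.28 at 3.5 h and -3.24 ± 0.24 at 16 h for Ifit1bl2.

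The change of that distance with time was tested as an interaction, and 5 of 5 members were called lower (14.3% of all genes). The interaction was -4.91 ± 0.51 for Ifit1bl1 (edgeR adjusted p = 5.06e-07), -2.58 ± 0.33 for Ifit2 (edgeR adjusted p = 5.30e-06) and -2.09 ± 0.43 for Ifit1 (edgeR adjusted p = 0.000567). It was smaller for Ifit3b, -1.22 ± 0.34 (edgeR adjusted p = 0.00641), and for Ifit3, -1.15 ± 0.33 (edgeR adjusted p = 0.00766). For Ifit3 it was -0.96 without VWF 3.5 h replicate 4 and -0.99 without VWF 16 h replicate 5, inside the fold threshold. Ifit3b had an edgeR adjusted p of 0.0692 when all 6 groups were fitted together.

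Between 3.5 h and 16 h with VWF, 5 of 5 tested members fell (12.2% of all genes did). Ifit1bl1, at 6.95 TPM or less at 16 h, passed the filter only through the 3.5 h cultures. Ifit1 fell by 3.64 ± 0.30 on the log2 scale (12.4-fold; edgeR adjusted p = 1.04e-06), Ifit2 fell by 2.52 ± 0.25 (edgeR adjusted p = 5.13e-06) and Ifit1bl1 fell by 2.43 ± 0.36 (edgeR adjusted p = 0.000124). Ifit3 fell by 1.03 ± 0.25 (edgeR adjusted p = 0.00399) and Ifit3b fell by 1.12 ± 0.25 (edgeR adjusted p = 0.00217), both close to the threshold of 1. Without VWF 3.5 h replicate 4 or without VWF 16 h replicate 5, neither Ifit3 (-0.83 and -0.87) nor Ifit3b (-0.93 and -0.97) was called, which left 3 members.

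With LPS the members went different ways. Ifit1 fell by 1.56 ± 0.29 between 3.5 h and 16 h (edgeR adjusted p = 0.00147), 1 of 5 tested members called lower where 13.5% of all genes were. Ifit1bl1 rose by 2.46 ± 0.29 (edgeR adjusted p = 9.05e-05), 1 of 5 called higher where 14.6% of all genes were. Ifit2 (0.04 ± 0.17), Ifit3 (0.10 ± 0.15) and Ifit3b (0.08 ± 0.18) did not pass the test. Without the filter, Ifit1bl2 was 1.94 ± 0.21 higher at 16 h (edgeR adjusted p = 1.95e-06).

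In Control cultures, 0 of the 3 members that passed the filter changed with time by edgeR (9.11% of all genes tested did in either direction), 0 of them had an unadjusted p under 0.05, and DESeq2 also called 0. The log2 values of Control at 16 h against 3.5 h were -0.01 ± 0.43 for Ifit1, 0.26 ± 0.28 for Ifit2 and -0.63 ± 0.33 for Ifit3.

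The effect of VWF, relative to the Control of the same time, was smaller at 16 h for 2 of 5 members (8.05% of all genes had a lower effect). It changed by -3.63 ± 0.54 for Ifit1 (edgeR adjusted p = 2.48e-05) and by -2.80 ± 0.39 for Ifit2 (edgeR adjusted p = 1.32e-05). For Ifit3 (-0.41 ± 0.44), Ifit3b (-0.11 ± 0.61) and Ifit1bl1 (-1.47 ± 0.69, edgeR adjusted p = 0.117) it did not pass the test.

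The effect of LPS was larger at 16 h for Ifit1bl1, by 3.47 ± 0.62 (edgeR adjusted p = 0.000203), 1 of 5 members where 13.5% of all genes had a higher effect. It was lower for Ifit1, by -1.53 ± 0.57 (edgeR adjusted p = 0.0357), 1 of 5 where 12.8% of all genes had a lower effect. The Ifit1 call was lost in 10 of 18 fits that left out 1 culture (highest edgeR adjusted p 0.0735). Ifit2 (-0.21 ± 0.37), Ifit3 (0.75 ± 0.41) and Ifit3b (1.11 ± 0.62) did not pass the test.

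The make-up of the family differed between groups. Per unit of length (TPM), Ifit3 led in Control cultures at 3.5 h with 49.5% ± 2.1 (SD, n = 5) of the family's sum, followed by Ifit1 with 23.5% ± 0.86 and Ifit2 with between 17.4% and 25.1%. With VWF at 3.5 h Ifit1 held 50.2% ± 4.0 and with LPS 60.7% ± 7.5 (n = 4), while Ifit3 held 27.6% ± 1.9 and 19.2% ± 3.9. At 16 h the VWF cultures were led by Ifit3 with 59.4% ± 2.5, and Ifit1 held 18.3% ± 3.5. In Control cultures of 16 h, at a sum similar to that of 3.5 h, the shares were 38.7% ± 6.2 for Ifit3, 29.2% ± 6.0 for Ifit2 and 27.4% ± 13.0 for Ifit1, whose share ran from 18.7% to 50.3%.

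In LPS cultures at 16 h, Ifit1 (30.3% ± 13.1), Ifit3 (30.3% ± 4.4) and Ifit2 (23.8% ± 4.8) held similar shares, and Ifit1bl1 held 10.6% ± 3.3 against at most 1.51% in any LPS culture at 3.5 h. By mean TPM in each group, the ranges over cultures of neighbours in the order of Ifit1, Ifit2 and Ifit3 overlapped except between Ifit1 and Ifit3 with LPS at 3.5 h and between Ifit3 and Ifit1 with VWF at 16 h. Ifit1bl2 came last in every group, and in Control cultures its range overlapped that of Ifit1bl1.

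The shift was tested on log2 ratios of Ifit1, Ifit2 and Ifit3 within a culture, each count divided by exon length, with exact two-sided permutation tests over cultures. Of 27 tests (3 ratios in 9 comparisons), 16 had an adjusted p under 0.05. Ratios do not depend on library scaling.

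At 3.5 h the log2 ratio of Ifit1 to Ifit3 was -1.07 ± 0.02 (SD, n = 5) in Control, 0.86 ± 0.20 (n = 5) with VWF and 1.68 ± 0.47 (n = 4) with LPS. Both stimuli differed from Control (exact permutation p = 0.00794 and adjusted p = 0.0165 for each, the smallest p these designs allow), and the ranges did not overlap. The Control ratio varied little from culture to culture at 3.5 h, between -1.10 and -1.05. VWF and LPS differed by -0.82 (exact permutation p = 0.0159, adjusted p = 0.0286), a call that was lost when any of 7 of the 9 cultures was left out.

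At 16 h the same ratio was -0.59 ± 0.81 in Control, -1.72 ± 0.30 with VWF and -0.07 ± 0.77 with LPS. The mean of VWF was below that of Control, although the lowest Control culture (-1.24) lay under the highest VWF culture (-1.19) (difference -1.13; exact permutation p = 0.0159, adjusted p = 0.0286) and below LPS (difference -1.65; exact permutation p = 0.00794, adjusted p = 0.0165). LPS and Control did not differ past the threshold (difference 0.51, exact permutation p = 0.397). Control replicate 5 and LPS replicate 4 had the highest ratios of their groups (0.82 and 1.07). Without the former the difference was 0.87 (exact permutation, adjusted p = 0.0406), and without the latter it was 0.13 (exact permutation, adjusted p = 0.909). These were the ends of its range over all single cultures left out. Control replicate 5 also had the lowest Stat2 (10.4 CPM, group median 31.0) and the highest Bst2 (647 CPM, group median 215) of its group. From 3.5 h to 16 h, VWF cultures moved by -2.58 (exact permutation p = 0.00794, adjusted p = 0.0165), from a 1.81-fold excess of Ifit1 over Ifit3 to a ratio of 0.304. LPS cultures moved by -1.75 (exact permutation p = 0.0286, adjusted p = 0.0482), a call that was lost without any 1 of the 4 LPS cultures of 3.5 h (exact permutation, adjusted p up to 0.0964) and when Ifit1bl1 and Ifit1bl2 were added to Ifit1 and Ifit3b to Ifit3 (-1.28, adjusted p = 0.0812).

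The ratio of Ifit2 to Ifit3 in VWF cultures at 16 h, -2.14 ± 0.21, was also apart from Control (-0.42 ± 0.18) and LPS (-0.36 ± 0.13) at that time (exact permutation p = 0.00794, adjusted p = 0.0165 for each), with no overlap. Taken as 4 same-numbered pairs, VWF and LPS cultures at 16 h differed by -1.64 in the ratio of Ifit1 to Ifit3 and by -1.86 in that of Ifit2 to Ifit3, each with an exact permutation p of 0.125, the smallest that 4 pairs allow. In Control cultures the ratio of Ifit2 to Ifit3 differed between the 2 times by 0.90 (exact permutation p = 0.00794, adjusted p = 0.0165). The Control ratios of Ifit1 to Ifit3 (difference 0.49, exact permutation, adjusted p = 0.161) and of Ifit1 to Ifit2 (-0.41, adjusted p = 0.458) did not pass. The ratio of Ifit1 to Ifit2 fell by 1.10 from 3.5 h to 16 h with VWF (exact permutation p = 0.00794, adjusted p = 0.0165), and with LPS its difference of -1.68 did not pass (exact permutation p = 0.0571, adjusted p = 0.0857), while without LPS 16 h replicate 4 it was -2.10 (exact permutation, adjusted p = 0.0454).

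Ifit1bl1 and Ifit1 were set against each other by culture. As a share of Ifit1 TPM, Ifit1bl1 was between 1.02% and 1.94% in VWF cultures at 3.5 h, between 1.19% and 2.80% in LPS cultures at 3.5 h and between 1.28% and 4.04% in VWF cultures at 16 h. In LPS cultures at 16 h it was 61.2%, 42.6%, 50.7% and 12.2%. The low value belonged to replicate 4, which had the highest Ifit1 of its group and the lowest Ifit1bl1, Ifit2, Ifit3 and Ifit3b. Without that culture, Ifit1 fell by 1.94 and Ifit1bl1 rose by 2.65 between 3.5 h and 16 h of LPS.

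**Figure D4:**
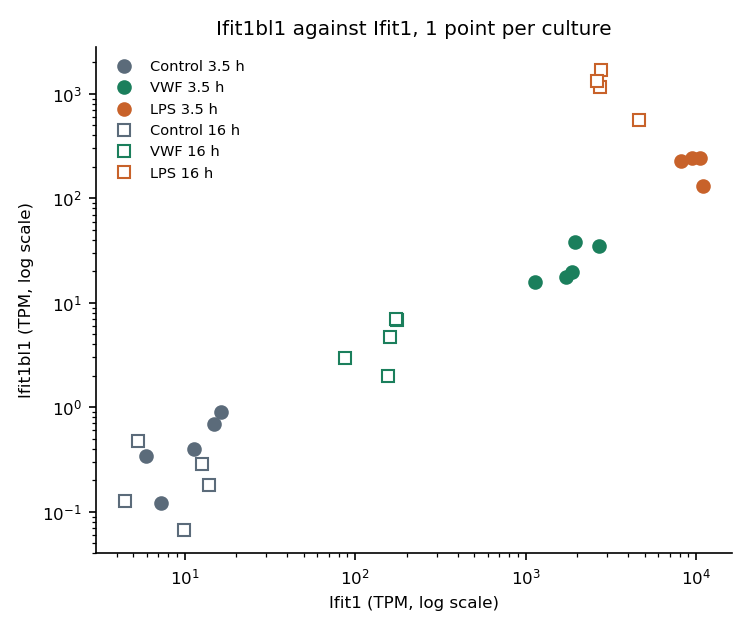
Ifit1bl1 against Ifit1 in TPM on 2 log axes, 1 point per culture, filled for 3.5 h and open squares for 16 h. The 4 LPS cultures of 16 h lie to the upper left of the LPS cultures of 3.5 h, with Ifit1bl1 at 567 to 1692 TPM, and the 1 of them with the most Ifit1 has the least Ifit1bl1.

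Most, not all, of the tested genes of the interferon signal were higher at 3.5 h with either stimulus. Of 16 genes of interferon signal and feedback, 14 were tested: 11 rose and 0 fell with VWF at 3.5 h (median log2 fold change 1.99), where 9.18% of all genes were higher and 5.52% lower, and 10 rose and 0 fell with LPS (median 3.11), where 12.8% were higher and 11.8% lower. The kinase genes Jak1 and Tyk2 and the factor gene Irf3 were called with neither stimulus, and the receptor gene Ifnar2 was not called with LPS. Jak1 (0.57 ± 0.14) and Tyk2 (0.92 ± 0.17) with VWF had an edgeR adjusted p under 0.05 and missed only the fold threshold. The same held for Jak1 (0.44 ± 0.14) and Ifnar2 (0.80 ± 0.13) with LPS. Tyk2 was 0.37 ± 0.16 with LPS, and Irf3 was 0.08 ± 0.07 with VWF and -0.23 ± 0.09 with LPS. Ifna2 and Ifna4, which encode interferon alpha subtypes, did not reach the filter. In Control cultures of 1 or both times 11 of the 16 reached it, and the other tested genes passed only through stimulated cultures. Ifnb1, which encodes interferon beta, was at 0.0417 ± 0.056 CPM in Control, 3.94 ± 1.30 CPM with VWF and 170.5 ± 51.4 CPM with LPS, so VWF was below LPS by 42.95-fold, a log2 difference of -5.42 ± 0.30 (edgeR adjusted p = 4.72e-07).

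From 3.5 h to 16 h, Ifnb1 fell by 5.55 ± 0.42 with VWF (edgeR adjusted p = 5.06e-07) and fell by 5.83 ± 0.41 with LPS (edgeR adjusted p = 4.41e-06). Its VWF cultures then held 2 to 11 counts each. At 16 h Ifnb1 was at no more than 0.649 TPM with VWF and 9.84 TPM with LPS. It passed the filter in these comparisons only through the 3.5 h cultures. Stat2, whose product is part of the complex that binds the interferon-stimulated response element, rose by 3.24 ± 0.18 with VWF at 3.5 h and by 1.93 ± 0.36 at 16 h, each against Control. Irf9, its DNA-binding partner, rose by 1.77 ± 0.07 at 3.5 h and was 0.93 ± 0.11 higher at 16 h, under the fold threshold.

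Irf7, which amplifies interferon production, rose between the times (by 1.98 ± 0.17 with VWF): it was at 84.4 ± 44.2 CPM in Control and 264 ± 47.3 CPM with VWF at 3.5 h, and at 43.5 ± 15.2 and 1041 ± 206 CPM at 16 h. Its VWF effect was 1.67 ± 0.33 at 3.5 h and 4.57 ± 0.31 at 16 h, and the change of 2.92 passed the test. Usp18, a brake on the interferon receptor, rose by 5.26 ± 0.34 with VWF at 3.5 h and by 4.01 ± 0.36 at 16 h, and with LPS by 7.30 ± 0.31 and 7.53 ± 0.41. At 16 h the list held 5 genes higher of 12 tested with VWF (median 0.84, 4.55% of all genes higher) and 11 of 13 with LPS (median 3.21, 15.3% of all genes higher), and 8 of 13 were lower with VWF than with LPS (median -1.49, 14.5% of all genes lower). Socs1, 1 of those 8, was at 6.30 TPM or less with VWF at 16 h and passed the filter there only through the LPS cultures. Socs3 (at most 6.56 TPM) and Usp18 (at most 8.59 TPM) stayed under the filter in Control cultures at 16 h. Their part in the counts against Control was therefore partly fixed by the filter.

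Among 12 genes that modify or sense the 5′ end of RNA or partner with IFIT proteins, Ddx58 (RIG-I), Ifih1 (MDA5), Dhx58 (LGP2) and Eif2ak2 (PKR) were the 4 higher members in each comparison with Control. That was 4 of 11 tested with VWF at 3.5 h (median of the list 0.43, 9.18% of all genes higher) and 4 of 10 at 16 h (median 0.22, 4.55% of all genes higher). With LPS it was 4 of 11 (median 0.62, 12.8% of all genes higher) and 4 of 10 (median 0.25, 15.3%). The 1 gene called lower was Cmtr2 with LPS at 3.5 h (-1.23 ± 0.15), where 11.8% of all genes were. Ddx58 rose by 2.74 ± 0.20 and 2.39 ± 0.27 with VWF and by 3.93 ± 0.18 and 4.26 ± 0.34 with LPS. The cap methyltransferase Cmtr1, whose product adds the ribose methyl group that Ifit1 reads, did not reach the filter. It was at 1.82 ± 0.29 CPM in Control, 3.46 ± 0.42 with VWF and 4.88 ± 0.50 with LPS at 3.5 h. The 16 h values were 1.77 ± 0.43 CPM in Control, 2.68 ± 0.28 with VWF and 1.24 ± 0.21 with LPS, below Control on average, and 66.7% of its windows occur in other genes.

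Of 12 other interferon effectors, 10 rose with VWF at 3.5 h (median 5.52, 9.18% of all genes higher) and 12 rose at 16 h (median 3.40, 4.55% of all genes higher). In Control cultures of 1 or both times 8 of the 12 reached the filter, and the others passed only through stimulated cultures. Of the 8, Cxcl10 (at most 1.23 TPM) and Gbp2 (at most 9.78 TPM) stayed under it in Control cultures at 16 h. The counts against Control were therefore partly fixed by the filter. With LPS 12 rose at both times, with medians of 7.67 and 8.09 (12.8% and 15.3% of all genes higher). At each time 12 of 12 were lower with VWF than with LPS (6.71% and 14.5% of all genes lower). The 2 that were not called with VWF at 3.5 h were Bst2 (tetherin), at 0.65 ± 0.23, and Ifitm3, at 0.83 ± 0.17. From 3.5 h to 16 h with VWF, 6 fell (12.2% of all genes did), such as Mx2 (-4.01 ± 0.23) and Rsad2 (-4.39 ± 0.31). Another 3 rose, Bst2 (1.90 ± 0.25) among them, where 9.15% of all genes did. The lists were chosen with earlier results of these data known, so their counts are descriptions.

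3 of the 10 other genes annotated within 250 kb of the family passed the filter: Fas, Ch25h and Lipa, all on the Ifit2 side. Ch25h, which makes an antiviral oxysterol, rose with VWF at 3.5 h by 5.36 ± 0.18 (edgeR adjusted p = 2.77e-09) and with LPS by 4.44 ± 0.16 (edgeR adjusted p = 1.51e-09). At 16 h it was at 3.57 ± 1.93 CPM with VWF against 6.11 ± 1.35 CPM in Control, and its VWF effect of -0.79 ± 0.43 was not called, at a time when 4 of 4 tested IFIT genes were. Fas, a death receptor gene, rose by 2.48 ± 0.16 with VWF at 3.5 h and was not called at 16 h (0.41 ± 0.18). Lipa, a lysosomal lipase gene next to Ifit2, was not called with VWF at either time (-0.42 ± 0.16 and -0.34 ± 0.22).

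Over the 28 cultures, the genes most like each member in log2 CPM were found among 8867 genes that passed the filter. For Ifit1 they were Slfn5 (Pearson r = 0.994), Mx2 (0.992) and Ifi211 (0.990). For Ifit2 they were Oasl1 (0.996), Gbp3 (0.995) and Tnfsf10 (0.995), and for Ifit1bl1 Tor3a (0.988), Slc25a22 (0.987) and Sp110 (0.986). Ifit3 and Ifit3b were each other's nearest gene (0.996), followed for Ifit3 by Usp18 (0.989) and Isg15 (0.988) and for Ifit3b by Rnf213 and Ifi213 (0.989 each). The values share the 6 groups and the libraries, so they describe the order of the groups and nothing more.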

How the data were processed

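Paired-end reads of 150 bases were mapped by the authors to GRCm38 (mm10) with STAR, and whole-number counts per gene were deposited by the authors for 28 cultures, without normalization. Which annotation and strand setting were used, and how multimapping reads were counted, is not given in the sources used here. Ensembl identifiers were matched to GENCODE M21.

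Counts divided by summed exon length gave TPM, and a gene was tested where at least 1 culture of the comparison reached 10 TPM, the filter of the study's methods. The 12 comparisons each used only the groups compared, in edgeR's quasi-likelihood test (edgeR 4.0.16, R 4.3.3, TMM factors, robust), with Benjamini-Hochberg adjustment over all genes tested. A gene was called at an adjusted p under 0.05 and an absolute log2 fold change over 1. SE was the log2 fold change divided by the square root of the F value. The script was tested on simulated data. CPM used TMM factors over all cultures, correlations a prior count of 2, and ratios an offset of 0.5 counts with exact permutation tests. Total counts of at least 41131209 per culture mean that 1 count is a small fraction of a CPM, and a culture at 0 counts allows up to 3.

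Members, gene lists, neighbours within 250 kb and the rule for the 3 most similar genes were chosen with earlier results of these data known. Of each list, Ifnb1, Stat2, Irf9, Irf7, Usp18, Cmtr1 and Ddx58 were to be named, with up to 4 others, and some items are not reported here. Windows of 100 bases measured shared transcript sequence. RefSeq tables gave the upstream sequences, and no protein sequences were used. Alternatives were DESeq2 1.42.0, its size factors, library size scaling, no filter, filterByExpr, all groups in 1 fit, the replicate number as a block, each culture left out and related members summed (Ifit1 with Ifit1bl1 and Ifit1bl2, Ifit3 with Ifit3b). Replicate numbers come from the labels without saying what they stand for. Deviations of same-numbered cultures correlated over 0.1 in all 4 pairs of VWF and LPS cultures at 16 h (0.16 to 0.78) and in no other comparison as a whole. In that comparison the replicate block changed no call of a member. No culture was a duplicate of another (chi-square per degree of freedom at least 17.1 over 52 pairs).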

Additional observations from a re-analysis of the deposited data

Results flagged for a closer look

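Ifit1 stood apart in 1 culture of each of 2 groups, out of 36 groups of values examined, where chance alone marks about 1 in 20. That is about the number chance alone would give. In VWF cultures at 16 h, replicate 5 was the lowest of 5 at 79.9 CPM, with a gap to the next culture of 0.73 of the range. In LPS cultures at 16 h, replicate 4 was the highest of 4 at 7073 CPM, with a gap of 0.848 of the range. Among genes outside the family, that culture had the lowest Stat2 (310 CPM, group median 659) and the highest Bst2 (6624 CPM, group median 3254). In a group of 4, some culture must be lowest and some highest for every gene, so these 2 genes do not describe the culture as a whole. The cause of its Ifit1 value was not tested.

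Interaction tests of edgeR marked 9 differences between the 2 times. The effect of VWF changed by -3.63 for Ifit1 and -2.80 for Ifit2. The effect of LPS changed by -1.53 for Ifit1 and 3.47 for Ifit1bl1. The difference between VWF and LPS changed by -2.09 for Ifit1, -2.58 for Ifit2, -1.15 for Ifit3, -1.22 for Ifit3b and -4.91 for Ifit1bl1. All are log2 values, and the Ifit1 value for LPS was past the threshold in 8 of 18 fits without 1 culture.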

How the results depend on the processing

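The number of IFIT genes called against Control was the same under DESeq2, its size factors, library size scaling, all groups in 1 fit, the replicate block and each culture left out, and it was 6 in each of the 4 comparisons without the filter or with filterByExpr, where more members were tested. Over all genes without the filter, 1393 of 26147 were higher with VWF and 2141 of 25626 with LPS at 3.5 h. At 16 h these were 647 of 26455 and 2299 of 26410. With filterByExpr they were 1209 of 14153 and 1825 of 14265 at 3.5 h, and 613 of 14376 and 2093 of 14624 at 16 h. The count for VWF at 16 h against 3.5 h ranged from 3 to 5 with 1 culture left out, and the count for the change of the LPS effect with time, 2, ranged from 1 to 3. The latter was 1 without the expression filter, where more genes were tested, and 1 with the replicate block. For Ifit1 in that comparison the edgeR adjusted p was 0.0724 and 0.0741 there and 0.0727 (value -1.18) when related members were summed, Ifit1 with Ifit1bl1 and Ifit1bl2, and Ifit3 with Ifit3b. The tests of ratios past the threshold numbered 14 to 19 with 1 culture left out and 0 with the replicate block, where pairs of 5 or 4 cultures cannot give an exact permutation p under 0.0625 or 0.125.

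Library size scaling moved the median log2 fold change of all genes by more than 0.1 in several comparisons. It went to -0.54 and -0.57 for LPS against Control at 3.5 h and 16 h, and to -0.22 for VWF at 3.5 h. For VWF against LPS it went to 0.30 and 0.44 at 3.5 h and 16 h. It also went from -0.01 to 0.14 for the change of the VWF effect and from -0.08 to 0.09 for that of the VWF to LPS difference. Genes called higher and lower went from 1047 and 963 to 708 and 2157 for LPS at 3.5 h and from 1221 and 989 to 793 and 2253 at 16 h. For VWF against LPS they went from 353 and 503 to 751 and 340 at 3.5 h and from 837 and 1095 to 1726 and 700 at 16 h, for VWF against Control at 3.5 h from 753 and 453 to 612 and 643, for the change of the VWF effect from 474 and 697 to 612 and 570 and for that of the VWF to LPS difference from 879 and 1173 to 1172 and 898. With it, Ifit2 in LPS at 16 h against 3.5 h was -0.012, the change of the VWF effect for Ifit3b was 0.015, Ifit3 in VWF at 16 h against 3.5 h was -0.92 and its change of the VWF to LPS difference was -0.97. With related members summed, the Ifit2 to Ifit3 ratio of LPS against Control at 16 h was -0.039 and the Ifit1 to Ifit2 ratio of VWF against LPS at 16 h was -0.30, neither past the threshold in either form, the Ifit1 to Ifit3 ratio of LPS at 16 h against 3.5 h lost its call (-1.28), and that of Control at 16 h against 3.5 h gained one (0.54, exact permutation, adjusted p = 0.0268). These shifts follow from adding the counts of relatives. The cause of the shifts under library size scaling was not tested.

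Leaving out 1 culture turned the sign of values that were not called: Ifit1 in Control at 16 h against 3.5 h ranged from -0.41 to 0.18, Ifit2 and Ifit3b in LPS at 16 h against 3.5 h from -0.073 to 0.16 and from -0.029 to 0.21, the change of the VWF effect for Ifit3b from -0.35 to 0.41, the change of the LPS effect for Ifit2 from -0.42 to 0.012, and the Ifit1 to Ifit2 ratio of VWF against LPS at 16 h from -0.059 to 0.56. Without Control 16 h replicate 3, Ifit3 (1.00) and Ifit3b (1.61) passed the threshold in the change of the LPS effect with time. The counts of Ifit1bl1 and Ifit1bl2 in Control cultures limit the precision of their fold changes.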
